A study of Mus musculus with 5 samples.

Results

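The SoxB factors described here are the transcription factor genes Sox1, Sox2, Sox3 and Sox21. Their probes were chosen by name alone: every probe that the array design assigns to one of these symbols and does not mark as a control was taken, whatever its signal. This gave 4 of the 36163 gene and transcript names on the array and 6 of its 55681 probes, 1 each for Sox2 and Sox3 and 2 each for Sox1 and Sox21. RNA of cultured mouse cells had been labelled with Cy3 and hybridised to 5 arrays, 1 array per sample. Chemically induced neural progenitor cells (ciNPC) filled 3 arrays, with 2 samples at passage 13 (p13-1 and p13-2) and 1 at passage 5 (p5). In the published study these cells were derived from fibroblasts by culture with small molecules in low oxygen. Neural progenitor cells taken from mouse brain (NPC), the study's control progenitors, filled 1 array, and mouse embryonic fibroblasts (MEF) filled 1. The labels give no strain, age or number of animals, and nothing in them tells whether p13-1 and p13-2 were separate cultures. The p-values below therefore reflect the spread among these 3 ciNPC samples, or between the 2 p13 samples for p13 against p5, and part of it may be technical. In limma this spread is also moderated by that of all probes tested.

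Sox proteins bind DNA through an HMG box, a domain that bends the double helix, and usually act together with a partner factor bound at a neighbouring site. Sox1, Sox2 and Sox3 form the SoxB1 group, activators that are expressed in neural progenitors and hold them in an undifferentiated state, in large part redundantly. Sox21 and Sox14 form the SoxB2 group, which act mainly as repressors and, in the chick neural tube, oppose SoxB1 and favour differentiation. Sox2 is also a core factor of pluripotent stem cells, where it pairs with Oct4 (Pou5f1), and in neural progenitors it pairs with POU factors of the Pou3f class. SoxB1 genes are not characteristic of fibroblasts.

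The last 30 bases of each 60-base probe are shown because the probes of Sox1 and Sox21 gave different results within 1 gene. They are printed 5′ to 3′ as in the array files, on the strand of the transcript, and the capitals mark AATAAA, the polyadenylation signal that lies near the end of many mRNAs. All positions are those of the array files on mm9. In the names, the downstream probe is the one nearer the 3′ end of the transcript.
Sox2 (chr3:34550773-34550832, plus strand): gagaatttgccaatatttttcgaggaaagg
Sox3 (chrX:58144564-58144623, minus strand): aaagttttgttcttaattgctaagtgagag
Sox1 downstream probe (chr8:12399496-12399555, plus strand): aggtAATAAAagaacacccctccctttttc
Sox1 upstream probe (chr8:12397503-12397562, plus strand): ctagcgccgcggggacgccggggacactgc
Sox21 downstream probe (chr14:118633351-118633410, minus strand): ttcatcccatgtgcaaatcaaagcaagacc
Sox21 upstream probe (chr14:118633788-118633847, minus strand): cagccgccgcacttctgcagccaactttaa

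Of the 6 probes, the Sox1 downstream probe alone held AATAAA in its 60 bases. It began at base 3977 of the transcript and the Sox1 upstream probe at base 1984. The Sox21 downstream probe began at base 2842 and the Sox21 upstream probe at base 2405. The Sox2 and Sox3 probes began at bases 1846 and 1982 of their transcripts. The share of G and C over the 60 bases was 35% for Sox2 and Sox3, 43.3% for the downstream probes of Sox1 and Sox21, 55% for the Sox21 upstream probe and 73.3% for the Sox1 upstream probe. The median over the 60-base probes of the array was 43.3%, and 0.426% of them reached 70% or more, so the Sox1 upstream probe was among the most GC-rich on the array.

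The promoters of Sox2, Sox1 and Sox21 are shown next because each of these genes had a probe that was higher in ciNPC than in MEF. Sox3 had such a probe too, but the promoter set used here held no entry for it. They are RefSeq sequences on GRCm38.p6, the 250 bases before the annotated start. Capitals mark 2 motifs, CCAAT (the CCAAT box) and GGGCGG (the GC box, bound by Sp1-type factors), on both strands, so that ATTGG and CCGCCC are the same motifs read on the other strand; no copies overlapped.
Sox2 promoter (chr3:34649745-34649994, plus strand): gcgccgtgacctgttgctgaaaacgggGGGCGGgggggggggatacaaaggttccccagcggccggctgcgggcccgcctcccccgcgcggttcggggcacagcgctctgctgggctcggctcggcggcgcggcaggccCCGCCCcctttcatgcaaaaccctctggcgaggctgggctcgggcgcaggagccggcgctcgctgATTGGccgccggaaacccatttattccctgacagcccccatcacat
Sox1 promoter (chr8:12395269-12395518, plus strand): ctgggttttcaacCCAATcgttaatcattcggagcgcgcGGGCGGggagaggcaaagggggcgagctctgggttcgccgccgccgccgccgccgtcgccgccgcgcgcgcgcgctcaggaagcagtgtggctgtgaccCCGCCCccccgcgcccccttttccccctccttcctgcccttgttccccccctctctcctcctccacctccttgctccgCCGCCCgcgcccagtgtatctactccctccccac
Sox21 promoter (chr14:118237031-118237280, minus strand): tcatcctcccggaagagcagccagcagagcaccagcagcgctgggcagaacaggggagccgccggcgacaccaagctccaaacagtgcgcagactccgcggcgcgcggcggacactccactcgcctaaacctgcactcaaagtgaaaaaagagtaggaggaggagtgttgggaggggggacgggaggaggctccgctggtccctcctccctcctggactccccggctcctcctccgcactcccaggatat

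All 3 windows were rich in G and C. The share was 72.0% for Sox2, 71.2% for Sox1 and 65.2% for Sox21, and the median over 32851 mouse promoters was 52.4%. They held 27, 29 and 17 CpG dinucleotides in the same order, and the median promoter held 6. Sox2 held 1 CCAAT and 2 GGGCGG, Sox1 held 1 and 3, and Sox21 held neither. Of all promoters of this length, 33.9% held CCAAT and 32.7% held GGGCGG. None of the 3 windows held ATTTGCAT (the POU octamer, in 1.60% of promoters), AACAAT (a Sox motif, 9.42%), TGGGAA (the core bound by the Notch effector Rbpj, 21.6%) or TATAAA (the TATA box, 12.4%). These are matches of letters, and no binding was measured.

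Values below are levels on a log2 scale: the spot's processed signal relative to the 75th percentile of its array, so that 0 is the level of the probe at that percentile. Each SoxB probe had 1 spot per array, and none was saturated or marked as an outlier. Levels of different probes depend on their sequence and were not set against each other. A spot that Feature Extraction did not mark as well above background has only an upper bound; a fold against it is given as "at least", against the lowest well-above-background signal of that array (its floor). Tested probes had to be well above background throughout 1 or more of the 4 groups (p13, p5, NPC and MEF). All 6 SoxB probes met this, among 35608. A probe passed at an adjusted p under 0.05 in limma and a difference of at least 2-fold. Both limits were applied to the measured signals, without the floor. An adjusted p printed beside an "at least" fold therefore belongs to the measured difference and not to the bound.

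The share of spots well above background was 47.9% to 54.1% on the ciNPC arrays, 55.2% on NPC and 57.6% on MEF. The 12 neural progenitor markers were all above background on every ciNPC array and on NPC, against 6 on MEF. The 14 fibroblast markers, Col1a1, Col1a2, Col3a1 and Col5a1 first among them, were all above background on every ciNPC array and on MEF, against 8 on NPC. Their summed signal, in units of the 75th percentile, was 198, 182 and 249.9 on p13-1, p13-2 and p5, 6.15 on NPC and 1866 on MEF. All 3 ciNPC arrays lay on 1 slide and scan, and NPC and MEF on another. So ciNPC against NPC or MEF is also slide against slide, and these cannot be told apart, while p13 against p5, like NPC against MEF, compares arrays of the same slide.

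**Figure D1:**
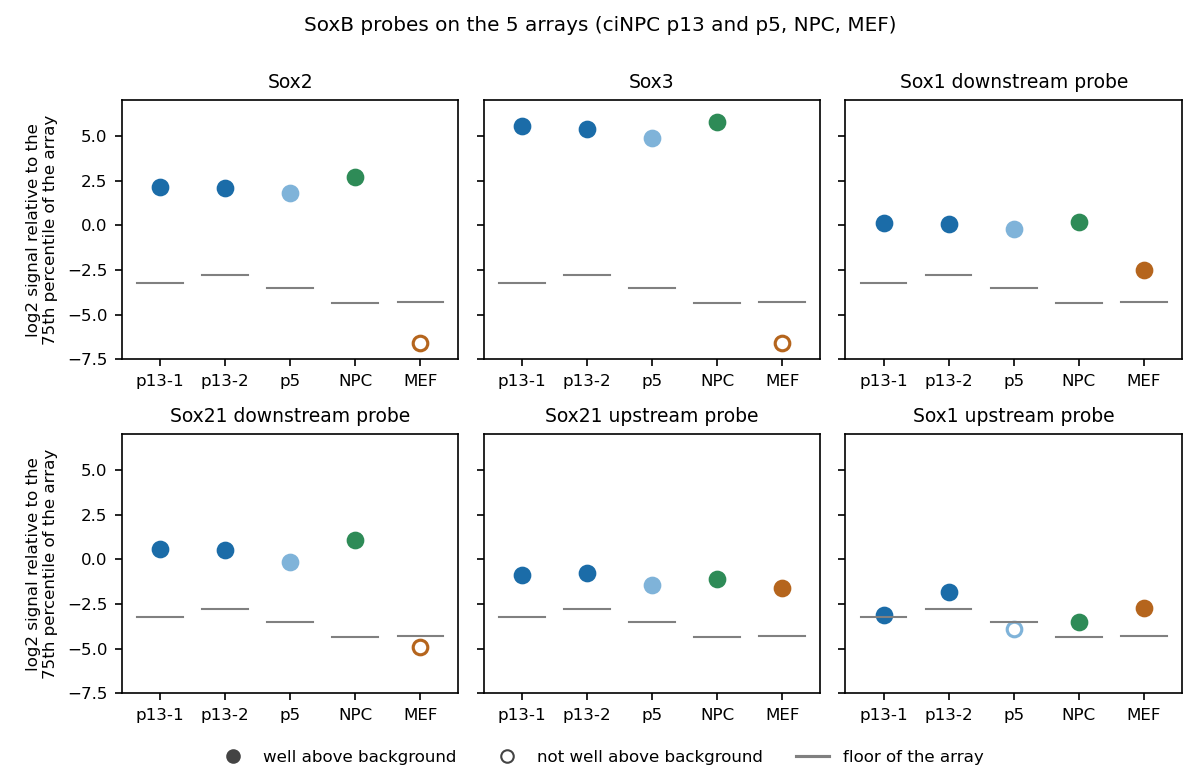
Level of each SoxB probe on each array (log2 signal relative to the array's 75th percentile), with p13-1, p13-2 and p5 of ciNPC, then NPC and MEF. Filled points are well above background, open points are not, and grey bars are the floor of each array. Sox2, Sox3 and the downstream probes of Sox1 and Sox21 sit highest on NPC, lower on the ciNPC arrays and far lower on MEF, and the upstream probes do not show this order.

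Sox2, the SoxB1 factor shared by neural and pluripotent stem cells, was at 2.11 on p13-1, 2.10 on p13-2 and 1.80 on p5, against 2.70 on NPC and -6.61 on MEF. The MEF spot was not well above background: its processed intensity was 5.91 with a software error of 101%, and the other 4 spots read 1905, 1871, 2140 and 3989 in the order p13-1, p13-2, p5 and NPC, with errors near 10%. Every ciNPC array was thus far above MEF and below NPC. Sox2 rose in ciNPC relative to MEF by at least 78.7-fold (adjusted p 2.95e-06, limma, higher on 3 of 3 arrays). In NPC it was at least 128-fold above MEF, a value of 1 array against 1 with no test, from a single slide.

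Sox3, the X-linked SoxB1 factor of the early neural plate and of neural progenitors, stood at 5.55 on p13-1, 5.35 on p13-2 and 4.90 on p5, against 5.77 on NPC and -6.57 on MEF, where it was not well above background. Sox3 rose in ciNPC by at least 757-fold relative to MEF (adjusted p 1.68e-06, limma, 3 of 3 arrays). In NPC it was at least 1073-fold above MEF.

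Sox1, the SoxB1 factor most restricted to the neural lineage, was read by its downstream probe at 0.11 on p13-1, 0.04 on p13-2 and -0.20 on p5, against 0.15 on NPC and -2.51 on MEF. This probe was well above background on all 5 arrays, MEF included, so its fold is measured and not a bound. It rose by 2.49 (SE 0.25) relative to MEF, or 5.63-fold (adjusted p 0.000487, limma, 3 of 3 arrays). NPC was 6.33-fold above MEF.

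The Sox1 upstream probe gave a different picture. Its levels were -3.13 on p13-1, -1.85 on p13-2 and -3.91 on p5, against -3.48 on NPC and -2.74 on MEF, and the p5 spot was not well above background. The ciNPC arrays spread on both sides of NPC and MEF, with an SD of 1.04 over the 3 arrays, against 0.16 for the downstream probe. Its difference from MEF was -0.22 (SE 0.84, adjusted p 0.874, limma) with a 95% interval of -2.22 to 1.79, and 1 of 3 ciNPC arrays was above MEF. All its spots were dim: the processed intensities were 50.2, 121 and 41.1 on p13-1, p13-2 and p5, 54.8 on NPC and 86.3 on MEF.

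Sox21, the SoxB2 repressor, was read by its downstream probe at 0.57 on p13-1, 0.54 on p13-2 and -0.13 on p5, against 1.06 on NPC and -4.92 on MEF, where it was not well above background. Again every ciNPC array lay between MEF and NPC. Sox21 rose on this probe by at least 24.6-fold relative to MEF (adjusted p 9.46e-05, limma, 3 of 3 arrays), and NPC was at least 40.9-fold above MEF.

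The Sox21 upstream probe was at -0.85 on p13-1, -0.77 on p13-2 and -1.46 on p5, against -1.10 on NPC and -1.59 on MEF, and was well above background on all 5 arrays. The 5 values spanned less than 1 log2 unit. Its difference of ciNPC from MEF was 0.56 (SE 0.36, adjusted p 0.290, limma; 95% interval -0.30 to 1.42), with 3 of 3 ciNPC arrays above MEF.

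In all, 4 of the 6 SoxB probes were higher in ciNPC than in MEF and 0 were lower. Over all 35608 probes tested, 12.5% were higher and 11.3% lower. By an unadjusted p under 0.05 there were also 4, against 43.7% of all probes in either direction. The median difference of the 6 probes was 3.87 on the measured signals, and that of all probes tested was -0.09. With every value raised to the floor of its array, these medians were 3.56 and 0.20. The floors themselves differ, from -3.52 to -2.79 on the ciNPC arrays against -4.29 on MEF, so raising dim probes shifts their difference upward. All 3 ciNPC arrays lay above MEF for 5 of 6 SoxB probes, against 36.7% of all probes, and for 4 of 6 they also lay below NPC, against 20.6%. NPC was at least 4-fold above MEF for 4 of 6, with dim values at the floor, against 6.78% of all probes, and at least 4-fold below it for 0, against 7.38%. The sizes depend on the background correction. With normexp, which adds an offset of 50 to each signal, Sox2 was 29.2-fold, Sox3 288-fold and the downstream probes of Sox1 and Sox21 3.74-fold and 8.77-fold higher than in MEF. All 4 passed, and for Sox2, Sox3 and Sox21 these folds lie below the bounds given above, which hold for the processed signal alone. The probes that rose in ciNPC and those 4-fold up in NPC were the same 4 probes: Sox2, Sox3 and the downstream probes of Sox1 and Sox21. Both calls are set against the same MEF array, so a low MEF spot enters both and this overlap is partly built in. The overlap over all probes was not counted.

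The disagreement between the paired probes of Sox1 and of Sox21 was not tested as a difference. That only 1 of 2 probes passes is common on this array. There were 3139 transcripts with 2 tested probes, and at least 1 of the 2 was higher in ciNPC than in MEF for 713. Only 1 was for 428 of these (60.0%). This count includes near misses, and the size of the gap was not compared. The 2 probes differed from MEF by 2.49 and -0.22 for Sox1 and by 5.25 and 0.56 for Sox21. Of these 428, the probe nearer the 3′ end was the higher one in 304 (71.0%), as it was for Sox1 and Sox21. With the 2 probes of a gene averaged, Sox1 no longer passed against MEF (1.14, adjusted p 0.118, limma; over all alternatives its adjusted p ran between 1.08e-07 and 0.118), and Sox21 passed at 2.91. The part of probe position and of GC content in the disagreement was not tested.

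**Figure D2:**
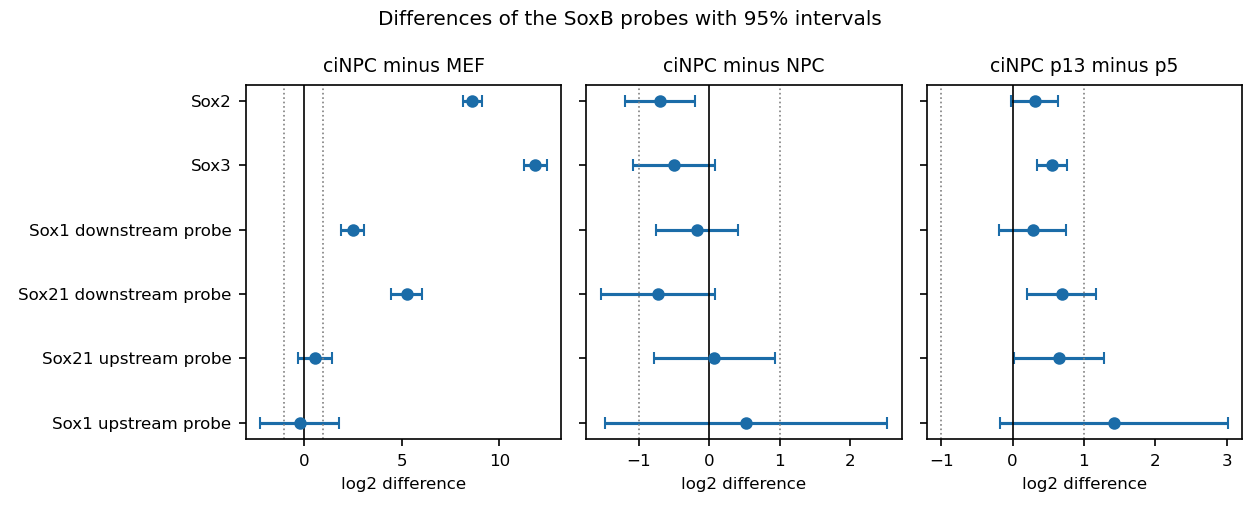
Log2 difference of each SoxB probe in 3 comparisons, ciNPC minus MEF, ciNPC minus NPC and ciNPC p13 minus p5, as points with 95% intervals from limma (horizontal axes differ between panels). Dotted lines mark 2-fold. Against MEF the top 4 probes lie beyond 2-fold with their whole intervals; against NPC every point lies within 2-fold, and against p5 every point lies right of 0. Differences from MEF are of measured signals, and MEF was not well above background for Sox2, Sox3 and the Sox21 downstream probe.

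The second question of the design is how near the SoxB levels of ciNPC came to those of brain-derived NPC. Relative to NPC on the linear scale, Sox2 stood at 66.5% on p13-1, 66.0% on p13-2 and 53.4% on p5. Sox3 stood at 85.8%, 74.8% and 54.7% on the same arrays, and the Sox1 downstream probe at 97.0%, 92.6% and 78.1%. The Sox21 downstream probe stood at 71.3%, 69.8% and 43.8%. For these 4 probes every ciNPC array was below NPC, which held for 40% of all probes tested, and p5 was the lowest of the 3 each time.

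None of these differences passed the test. Sox2 differed from NPC by -0.70 (SE 0.21), with an adjusted p of 0.210 in limma, an unadjusted p of 0.0134 and a 95% interval of -1.20 to -0.20. That adjusted p depended on the setting. The Sox2 difference ran between -0.77 and -0.57 over the alternatives, under the 2-fold limit each time. For Sox3 the difference was -0.50 (adjusted p 0.433; interval -1.08 to 0.08), and for the Sox21 downstream probe -0.73 (adjusted p 0.415; interval -1.54 to 0.08). The Sox1 downstream probe differed by -0.17 (adjusted p 0.794; interval -0.76 to 0.42). The intervals for Sox2, Sox3 and Sox21 reach beyond a 2-fold deficit, so these data do not show equal levels. In whole-culture RNA, fewer cells with SoxB expression and less SoxB RNA per cell cannot be told apart.

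The upstream probes differed from NPC by 0.52 for Sox1 (SE 0.84, adjusted p 0.818, limma) and by 0.07 for Sox21 (SE 0.36, adjusted p 0.952). In total 0 of the 6 SoxB probes passed against NPC in limma, and 1, Sox2, had an unadjusted p under 0.05, against 13.6% of all probes. Of all probes tested 2.73% were higher and 0.0534% lower in ciNPC than in NPC. The median difference from NPC was -0.34 over the 6 probes and -0.12 over all probes. The fibroblast markers moved the other way: 13 of 14 were higher in ciNPC than in NPC, and their part in the SoxB differences was not tested.

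Between passages, all 6 SoxB probes were higher on both p13 arrays than on p5, which held for 48.1% of all probes tested. The differences were 0.31 for Sox2 (SE 0.16), 0.55 for Sox3 (SE 0.10), 0.28 and 1.42 for the downstream and upstream probes of Sox1 (SE 0.23 and 0.78) and 0.69 and 0.65 for those of Sox21 (SE 0.24 and 0.31). They were all above the median of all probes, 0.12. For the Sox1 upstream probe p5 was not well above background, and p13 was at least 2.04-fold higher.

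The passage difference of 0 of the 6 probes passed both limits in limma, against 0.637% of all probes higher and 0.202% lower. By unadjusted p under 0.05 there were 3, Sox3 and both probes of Sox21, against 18.7% of all probes. Sox3 had an adjusted p of 0.00146 but was 1.47-fold higher, under the 2-fold limit. That adjusted p rested on the setting: it was 0.129 after quantile normalisation, 0.138 on the deposited value table and 0.680 without the intensity trend, and over all alternatives it ran between 1.26e-06 and 0.680. The difference itself was above 0 for every SoxB probe under the 4 alternatives that rescale or recompute the signal (24 of 24 values). These values come from the same p13 and p5 arrays and are not independent. The share of all probes above 0 under these alternatives was not counted.

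The scaling enters this comparison. Before scaling, the processed intensity was higher on both p13 arrays than on p5 for 3 of the 6 probes, and Sox2 read 1905 and 1871 on p13-1 and p13-2 against 2140 on p5. The 75th percentile itself was 440, 436 and 615 on these arrays. Across the scalings tried, the median of all probes ran between -0.05 and 0.18 for p13 minus p5 and between -0.16 and 0.06 for ciNPC minus MEF. The neural progenitor markers had a summed signal of 619.7 on p13-1 and 560.1 on p13-2 against 498 on p5, and the fibroblast markers, given above, were lower on both p13 arrays than on p5. The part of this shift in the SoxB differences was not tested.

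On the scale used here, the order of levels for Sox2, Sox3 and the downstream probes of Sox1 and Sox21 was NPC, p13, p5 and MEF from high to low. For the Sox1 downstream probe the place of NPC above p13 is not settled. There p13-1 stood at 97.0% of NPC, and the software error of its spot was 10.3%. With the 75th percentile taken over probes detected on all arrays, its difference of ciNPC from NPC was -0.04. The tests set p13 and p5 together, as ciNPC, against NPC and MEF. By them ciNPC against NPC did not pass, nor did p13 against p5, and ciNPC against MEF passed. The upstream probes had other orders, and for them none of these tested comparisons passed.

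Other Sox genes show how far the change was shared in the family. Of 16 other Sox genes on the array, 12 were tested, 4 were higher in ciNPC than in MEF and 0 were lower. Over all probes tested, 12.5% were higher and 11.3% lower, and these shares also stand beside the list counts below. The median difference of the 12 genes was -0.24 on the measured signals and 0.80 with every value raised to the floor of its array. The 4 were Sox9, Sox8, Sox6 and Sox11. Sox9 and Sox8, of the SoxE group, mark neural stem cells and glia. Sox9 was at 2.59 on p13-1, 2.71 on p13-2 and 2.55 on p5, against 3.10 on NPC and -0.47 on MEF, a rise of 8.49-fold relative to MEF (adjusted p 2.84e-05, limma). Sox8 rose at least 19.7-fold and Sox6, a SoxD gene of progenitors and glia, at least 8.59-fold.

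Sox11, a SoxC factor of immature neurons, rose 3.79-fold (adjusted p 0.000178, limma). Sox4, its SoxC relative, differed from MEF by -0.54 (adjusted p 0.0252), under the 2-fold limit. Sox10, the SoxE factor of neural crest and oligodendrocytes, differed by -0.22 (SE 0.36, adjusted p 0.683). Sox14, the other SoxB2 gene, was well above background on 1 of 5 arrays, MEF, with a difference of -0.78 (SE 1.11, adjusted p 0.646). Sox17, Sox18, Sox7 and Sox30 were not well above background on any array. Of the 12 tested, 0 passed against NPC in limma, and 1, Sox9, had an unadjusted p under 0.05.

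**Figure D3:**
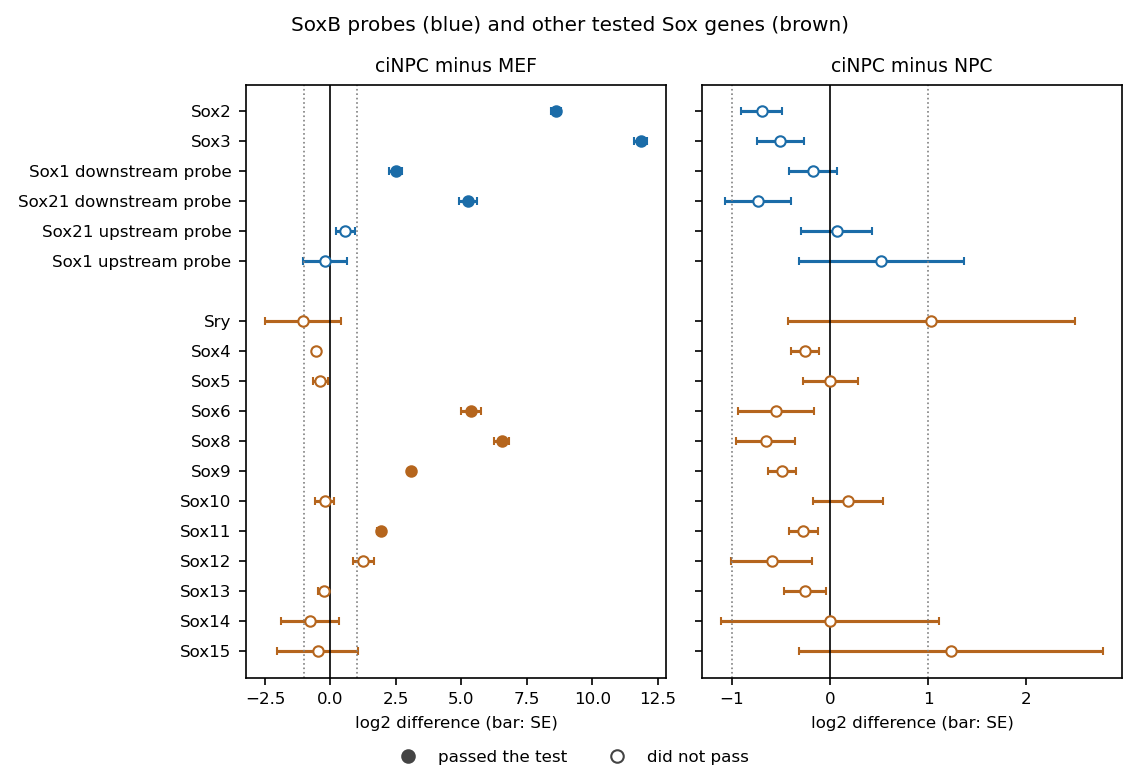
Log2 difference of the 6 SoxB probes (blue) and the 12 other tested Sox genes (brown), ciNPC minus MEF and ciNPC minus NPC, with SE as bars and dotted lines at 2-fold. Filled points passed the test. Sox2, Sox3, Sox8, Sox6 and the Sox21 downstream probe were not well above background on MEF, so their places against MEF are of measured signals and give no exact order. No point is filled against NPC.

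Of 7 listed partner factors of SoxB proteins 6 were tested, and 5 were higher in ciNPC than in MEF and 0 lower. Their median difference was 4.37 on the measured signals and 3.80 with every value raised to the floor of its array, beside -0.09 and 0.20 over all probes. Pou3f1 was at 3.06 on p13-1, 2.95 on p13-2 and 3.50 on p5, against 3.65 on NPC and -1.83 on MEF, and rose 32.0-fold relative to MEF (adjusted p 2.61e-05, limma). Pou3f1, Pou3f2 and Pou3f3 are POU factors that bind beside Sox2 on neural enhancers. Pou3f2 rose at least 15.7-fold and Pou3f3 at least 31.4-fold. Pou3f4 differed by 0.24 (SE 1.02, adjusted p 0.886).

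Pax6, which pairs with Sox2 in lens and forebrain, rose at least 6.63-fold. The chromatin remodeller Chd7, a binding partner of Sox2 in neural stem cells, rose 12.3-fold. Pou5f1, the partner of Sox2 in pluripotent cells, was not well above background on any array. Of the 6 tested partner genes, 0 passed against NPC in limma, and 1, Chd7, had an unadjusted p under 0.05.

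The listed Sox2 targets did not move as 1 group. Of 7 genes reported as Sox2 targets in neural progenitors 6 were tested, 2 were higher in ciNPC than in MEF and 2 were lower, with a median of -0.37. The orphan nuclear receptor gene Nr2e1, which maintains neural stem cells, was at 1.08 on p13-1, 0.88 on p13-2 and 0.70 on p5, against 1.46 on NPC and -6.38 on MEF, and rose at least 36.2-fold. The intermediate filament gene Nes rose 4.31-fold. Socs3, an inhibitor of JAK-STAT signalling, fell by 1.97 relative to MEF (adjusted p 0.000659, limma). Gli2, an effector of Hedgehog signalling, also passed as lower (adjusted p 0.0376), with a difference of -2.03 on the measured signals. Its p13-1 and p13-2 spots were not well above background, and with these at the floor the difference was -1.51. Notch1 differed by -0.70 and Egfr by -0.03, under the 2-fold limit, and Shh was not well above background on any array.

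Of 7 genes that Sox2 and Oct4 activate in pluripotent cells 4 were tested, and 0 were higher and 1 was lower in ciNPC than in MEF. The gene that fell was Spp1, which encodes the secreted protein osteopontin and is also expressed by fibroblasts; it differed by -4.49 (adjusted p 7.09e-05, limma). Fbxo15 and Zfp42 were not well above background on any array, and Fgf4 was on 1, p13-2. Nanog was at -0.57 and -0.33 on p13-1 and p13-2 and -1.54 on p5, against -0.68 on NPC and 0.03 on MEF. The difference of p13 from p5 was 1.09 (adjusted p 0.00649, limma), but it no longer passed under 5 of the 9 alternatives: its adjusted p was 0.181 with quantile normalisation, 0.189 on the deposited table and 0.680 without the intensity trend, the difference was 0.91 with normexp, and it was 0.077 with the probes of the gene averaged. Nanog in ciNPC differed from MEF by -0.84 and did not pass (adjusted p 0.219). Mouse Nanog has near-identical pseudogenes that its probes may also read.

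The neuron markers split, with 5 of 9 tested higher and 3 lower than in MEF, and 5 of 8 astrocyte markers were higher and 0 lower. The marker lists of lens, which also uses Sox2, and of epithelium held 0 higher and 0 lower of 5 and 6 tested. Of the tested markers of oligodendrocytes 1 of 8 was higher and 0 were lower. Neural crest, macrophage and endothelial markers held 0 higher, with 1 of 5, 2 of 6 and 1 of 3 lower. Over all probes tested 12.5% were higher and 11.3% lower, so the 1 of 8 of the oligodendrocyte list was near the share of all probes.

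**Figure D4:**
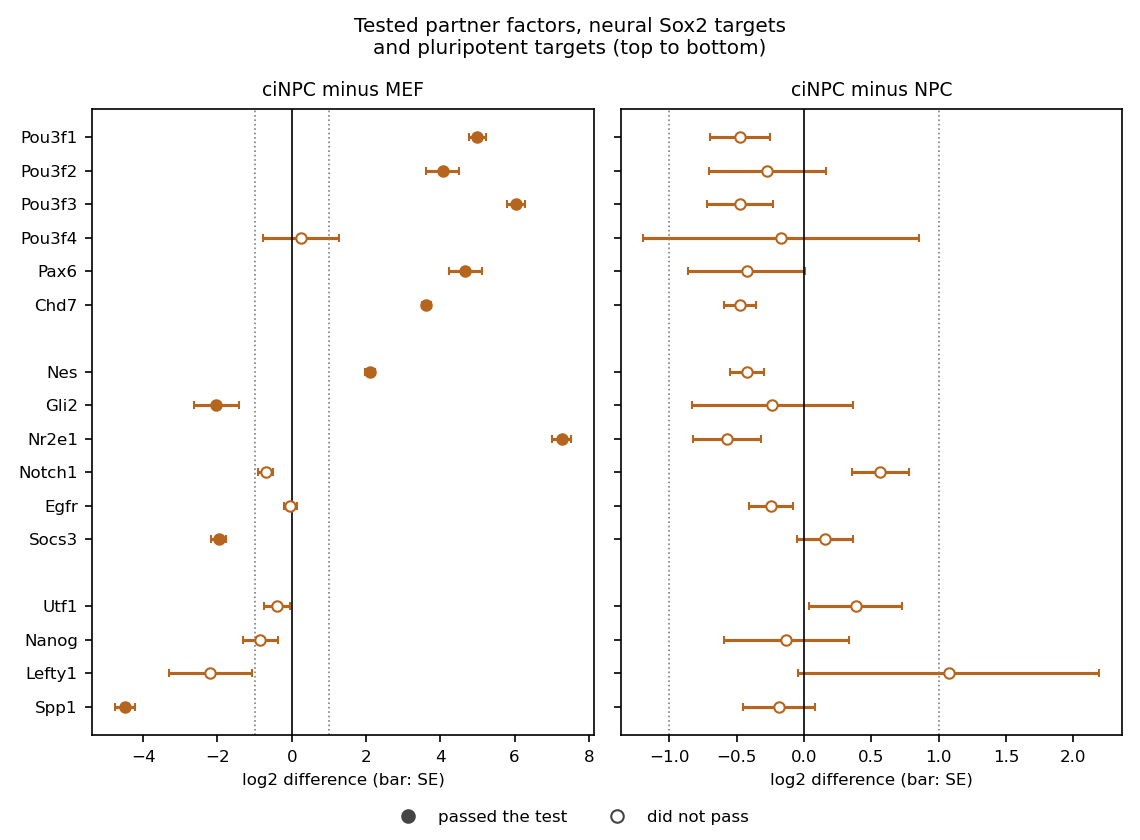
Log2 difference of the tested SoxB partner factors, neural Sox2 targets and pluripotent targets, in blocks in that order down the page, ciNPC minus MEF and ciNPC minus NPC, with SE as bars and dotted lines at 2-fold. Filled points passed the test. The partner block lies right of 2-fold against MEF except Pou3f4, the neural target block lies on both sides, and no point is filled against NPC. Pou3f2, Pou3f3, Pax6 and Nr2e1 were not well above background on MEF, nor Gli2 on the p13 arrays, so these differences are of measured signals.

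Some genes followed the SoxB probes closely over the 5 arrays. Likeness was the root mean square difference of levels raised to the floor of each array and centred on their mean, over 14934 named genes, and the 5 arrays share only 4 groups, so many genes with a like step between MEF and the neural cells score alike. For Sox2 the 5 nearest were Adgrg1, Vav3, Ccnjl, Ptgds and Camk2b, at 0.05 to 0.12 log2 units. For Sox3 they were Pantr1, Fabp7, Bcan, Fam181b and Rtn1, at 0.09 to 0.19. The Sox1 downstream probe was nearest to Robo2, Sapcd2, Bcl2l13, Cadm1 and Ttpa, at 0.06 to 0.09, and the Sox21 downstream probe to Spsb4, Fam189a1, Rbfox3, Shc3 and Fzd9, at 0.06 to 0.12. Vav3, Ttpa, Rbfox3 and Shc3 were not well above background on MEF, so the floor limits their step. On the measured signals Ttpa differed from MEF by 4.75, against 2.49 for the Sox1 downstream probe.

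Among the members themselves, Sox2 and Sox21 were nearest, 0.68 apart, with Sox21 ranked 119 among the 14934 genes by likeness to Sox2 and Sox2 ranked 297 by likeness to Sox21. Sox2 ranked 46 by likeness to Sox3, at 1.29. By likeness to Sox1, Sox21 ranked 5916, Sox2 12869 and Sox3 14724, so most genes were nearer to Sox1 than Sox2 or Sox3 were. Sox3 ranked 7484 by likeness to Sox21, and the other 5 ranks lay between 140 and 600. Sox1 and Sox3 were farthest apart, at 2.87. The measure is dominated by the size of the step at MEF, which the floor limits for Sox2, Sox3 and Sox21.

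The array also holds probes for unannotated and non-coding transcripts around the SoxB genes. Within 200 kb of the Sox2 probe lay 20 other probes, of which 11 were tested, 4 were higher in ciNPC than in MEF and 0 were lower. Of all probes tested 12.5% were higher and 11.3% lower. The 4 higher probes lay 25.1 to 28.8 kb downstream of the Sox2 probe on the same strand. Of these, 1 was in Sox2ot, the long non-coding RNA in whose intron Sox2 lies, and 3 in 1 long intergenic RNA of the design. They are named here after their values were seen. Of the 4, 2 were well above background on every ciNPC array. The other 2, both 25.1 kb away in the intergenic RNA, were above background on p13-1 and NPC alone and entered the test through NPC. With MEF at its floor and the ciNPC signals as measured, they were 1.75-fold and 2.18-fold higher. These values are no bounds, because p13-2 and p5 were dim. The Sox2ot probe was at -0.80 on p13-1, -1.15 on p13-2 and -1.15 on p5, against -0.70 on NPC and -6.62 on MEF. It rose at least 9.59-fold relative to MEF (adjusted p 0.000132, limma) and differed from NPC by -0.33 (adjusted p 0.749).

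Around the other members fewer probes changed. Of 20 probes near Sox1, 13 were not well above background on any array and 4 were tested; 1 was higher in ciNPC than in MEF, the transcript D630011A20Rik at 154.8 kb, by at least 2.99-fold. The 2 probes of Sox1ot, the non-coding RNA that overlaps Sox1, were not tested. Of 12 probes near Sox21, 7 were tested and 1 was higher, an expressed sequence tag at 26.6 kb. With MEF at its floor this tag was 2.06-fold higher, which is no bound, because p13-2 was not well above background. Of 5 probes near Sox3, 2 were tested and 0 passed in limma, with 1 at an unadjusted p under 0.05. That probe, 18.8 kb away, was lower in ciNPC than in MEF (-3.04 on the measured signals). MEF was its only array well above background. No probe near any member passed as lower in ciNPC than in MEF.

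**Figure D5:**
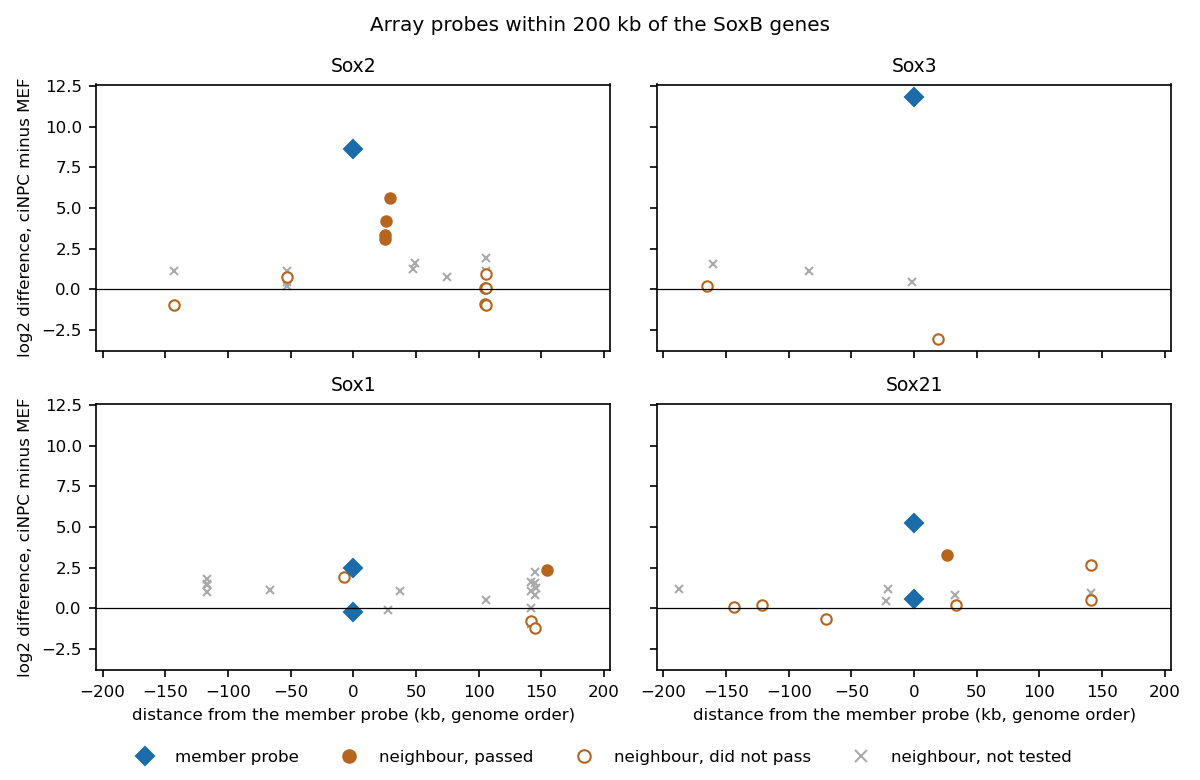
Log2 difference of measured signal, ciNPC minus MEF, for array probes within 200 kb of each SoxB gene, by distance from the member probe in genome order. Blue diamonds are the SoxB probes, filled circles passed the test, open circles did not and crosses were not tested. The 4 filled circles near Sox2 lie 25.1 to 28.8 kb from it, and 2 of them were dim on p13-2 and p5 and had entered the test through NPC; 1 filled circle each lies near Sox1 and Sox21. MEF was not well above background for any filled circle.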

How the data were processed

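Per the file headers, the authors extracted the 5 one-colour arrays with Agilent Feature Extraction 10.7.1.1, on a design annotated on mm9; the deposited processed signal is an intensity, with background subtracted but no scaling across arrays. The value table that the authors deposited is in log2 units, with a median of 5.64 in every column, and its scaling step is not given in the sources used here. It served as an alternative. Here log2 of the processed intensity minus the array's 75th percentile was used, after outlier spots were removed. Tests used limma 3.58.1 (R 4.3.3) over 35608 probes, with an intensity trend and Benjamini-Hochberg adjustment. ciNPC as 1 group of 3 arrays against NPC and MEF left 2 residual degrees of freedom, and 4 groups left 1 for p13 against p5. The spread over all probes added 4.69 and 24.9 prior degrees of freedom in these fits, so the p-values rest mostly on it. The lone NPC and MEF arrays were assumed to vary like ciNPC, and the lone p5 array like p13. NPC against MEF had no test. For a listed gene the probe with the highest mean was used. Named genes are the members, listed genes, the 5 nearest genes per member and up to 4 per marker list. A listed gene and 1 list are not reported here. Members and lists were chosen with earlier results of these data known. The fits were tested on simulated data. The number of arrays limits the precision.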

Additional observations from a re-analysis of the deposited data

How the results depend on the processing

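Of 216 values set against single SoxB probes under the alternatives, 8 turned in sign, 1 fell under and 1 rose past the threshold, 6 differences of NPC from MEF moved by more than the spread, and 200 did none of these. Where the probes of a gene were averaged, the average was set against each of its probes. Both changes at the threshold and some of the turns in sign came from these averages. Part of the 200 was fixed in advance. Changing the filter, dropping the trend or taking 1 probe per gene leaves a probe's difference as it was, so only passing could change. For p13 against p5 without a p13 array, the shift could not exceed the limit set on it. Against MEF, 4 SoxB probes were higher in every alternative except 2: averaging the probes of a gene left 3 of 4 genes, and taking only probes well above background on all 5 arrays left 1 probe, because fewer are tested. Against NPC and between passages the count of SoxB probes that passed was 0 throughout. Averaging the probes of a gene gave Sox1 a difference of 1.14 from MEF (adjusted p 0.118, limma) and 0.18 from NPC, and Sox21 a difference of 2.91 from MEF, which passed, and -0.33 from NPC. The Sox1 upstream probe turned to 0.12 against MEF with normexp background. Leaving out 1 ciNPC array at a time gave this probe values of -0.77 (without p13-2) to 0.25 (without p5) against MEF and -0.033 (without p13-2) to 1.00 (without p5) against NPC, and gave the Sox21 upstream probe -0.057 (without p13-2) to 0.28 (without p5) against NPC.

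Counts over all probes moved more. Against NPC, 972 probes were higher and 19 lower; these were 536 and 46 with quantile normalisation, 537 and 37 on the deposited table, 576 and 12 with probes above background on all arrays and 333 and 12 without the trend; lower probes numbered 59 with normexp and 34 without a filter. Leaving out p13-1, p13-2 or p5 in turn gave 1189 to 1585 higher, the most without p13-2, and 78, 282 and 83 lower. At p13 against p5, 227 probes were higher and 72 lower; these were 3 and 0 with quantile normalisation and on the table, 76 and 40 above background on all arrays, 0 and 0 without the trend, and 113 and 43 with 1 probe per gene. The cause was not tested, other than fewer probes tested in the filters and per gene. Without a p13 array, p13 against p5 has no residual degrees of freedom and is a value with no test. No paired analysis was possible because only the p13 samples carry replicate numbers, so no groups share them. Spots near the floor, the Sox1 upstream probe above all, limit what can be read.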
